A study of Manihot esculenta with 8 samples.

Results

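The genes described here are the expressed genes of cassava shoots that rose most in the cold. Cassava (Manihot esculenta) is a tropical root crop, and strand-specific RNA sequencing of its shoots was compared between control and cold-treated seedlings. The genes were chosen by their measured levels in these same libraries. Levels are in CPM, the counts of a gene scaled to a common library total of 1000000. A gene ID was taken if its mean over the 4 control libraries was at least 1 CPM, its mean over the 4 cold libraries was at least 4 times as high, and its lowest cold value lay above its highest control value. The rule found 69 of the 31901 gene IDs in the deposited table, or 0.3% of the 23002 IDs with at least 1 CPM in control. Since cold and control values made the choice, the rises below are a description and carry no test.

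All seedlings were wild type and of the cultivar TM12, raised in climate chambers at 20 °C in the day and 18 °C at night, with 16 h of light and 60% humidity. The control group had no treatment. The cold group was raised the same way for 2 weeks and then spent 3 h in a lit cold room at 4 °C before harvest, so temperature and room changed together. The labels give no hour of harvest for the control shoots, and an effect of the time of day cannot be told apart from one of cold if the hours differed. Whole shoots were taken, and a change in the amount of a cell type cannot be told apart from a change of RNA per cell. Each group held 4 libraries, and nothing in the labels says that they came from separate plants or pools.

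Plants answer chilling within hours by switching on transcription factors, among them the CBF/DREB1 family known best from Arabidopsis. These in turn raise genes for protective proteins such as dehydrins, for sugars of the raffinose family and for membrane lipids. Calcium signals and the circadian clock act on the early part of this response, and tropical crops such as cassava are injured by temperatures that temperate plants survive. The deposited table gives gene IDs without names, and none of the 31901 IDs matched the RefSeq gene table (0 matches), so no ID below is assigned to any of these families. IDs carry a chromosome number and a locus number, and these are used here for position.

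Depth was 62798223 to 100031792 counts per library. The 1000 most abundant IDs took 37.6% of the counts in control replicate 1, 36.4% in cold replicate 1 and 38.1% in cold replicate 3, against 33.4% to 34.6% in the other 5 libraries. Every induced ID was well counted in the cold, where the lowest value was 145 counts. In control the lowest was 20 counts, and 3 IDs had under 50 counts in some library. All 69 passed the count filter of edgeR, and its quasi-likelihood test called 66 of them higher at an adjusted p below 0.05, where 4.06% of the 26517 tested IDs were called higher. The choice of the IDs used this same contrast, so the count supports nothing further. Cold libraries lay wholly above control libraries for 6.65% of all IDs with at least 1 CPM in control, a condition that the rule sets for the 69.

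Most of the rises were between 4-fold and 8-fold. The median ratio of the cold mean to the control mean was 5.29, with a range of 4.03 to 49.3, while the median over all IDs with at least 1 CPM in control was 0.975. There were 30 IDs between 4-fold and 5-fold, 14 between 5-fold and 6-fold, 12 between 6-fold and 8-fold, 6 between 8-fold and 16-fold and 7 above 16-fold. Together the 69 IDs took 0.0763% ± 0.00599 of all counts in control and 0.505% ± 0.0524 in cold (SD, n = 4 each). The values were 0.0719%, 0.0703%, 0.0809% and 0.0819% in control replicates 1 to 4, and 0.553%, 0.432%, 0.505% and 0.529% in cold replicates 1 to 4. Cold replicate 2 was the lowest of the cold libraries. That every cold library was above every control library follows from the rule, and the values give only the size.

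**Figure D1:**
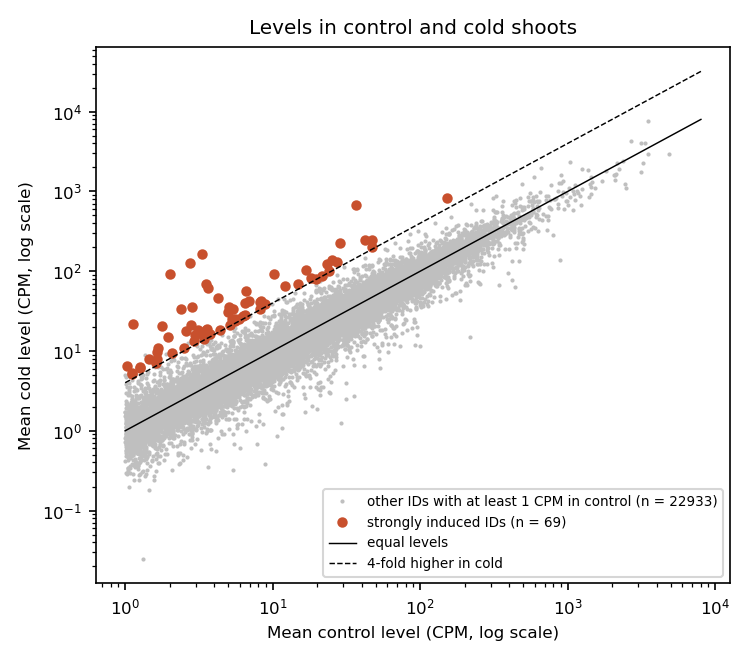
Each point is a gene ID with at least 1 CPM in control, plotted by its mean control level (horizontal, CPM, log scale) and mean cold level (vertical, CPM, log scale); the strongly induced IDs are in colour. The 69 induced IDs lie on or above the dashed line of a 4-fold rise, and most have control levels below 10 CPM.

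The size of the rise differed among the 4 cold libraries. Against the control mean, the median ratio over the 69 IDs was 6.33 in cold replicate 1, 4.34 in cold replicate 2, 5.23 in cold replicate 3 and 5.38 in cold replicate 4. The ratio reached 4 for 60, 37, 47 and 50 of the 69 IDs in cold replicates 1 to 4. It did so in all 4 cold libraries for 26 IDs, in 3 of them for 12, in 2 for 23 and in 1 for 8. A ratio of at least 2 in every cold library was found for 62 of the 69 IDs, and for 161 of all 23002 IDs with at least 1 CPM in control (0.7%).

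With all 8 libraries, the largest rise was that of MANES_14G145700. Its levels were 2.76, 1.28, 4.35 and 4.97 CPM in control replicates 1 to 4 and 207, 57.1, 298 and 96.4 CPM in cold replicates 1 to 4. The cold mean of 164 ± 109 CPM was 49.3 times the control mean of 3.34 ± 1.66 CPM (SD, n = 4 each). Cold replicates 1 and 3 were the high ones, and even the lowest cold library was 11.5 times the highest control library.

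Its direct neighbour in ID order, MANES_14G145800, followed the same order of libraries. It had 2.33, 1.07, 3.37 and 4.30 CPM in control and 159, 44.7, 230 and 78.1 CPM in cold replicates 1 to 4. The rise was 46.2-fold, and again cold replicates 1 and 3 stood highest and the groups were far apart.

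MANES_16G090700 rose nearly as steeply and more evenly. It had 1.87, 1.64, 2.51 and 2.00 CPM in control and 129, 80.7, 85.5 and 72.9 CPM in cold replicates 1 to 4. The rise was 46.0-fold, from 2.00 ± 0.368 to 92.0 ± 25.2 CPM (SD, n = 4 each). Its lowest cold library was 29.1 times its highest control library, the widest such gap among the 69 IDs, and only cold replicate 1 stood somewhat above the rest. Which of these IDs rose most depended on single libraries. The log2 fold change in edgeR was 5.69 for MANES_14G145700 and 5.57 for MANES_16G090700 with all libraries. Without cold replicate 3 the values were 5.22 and 5.59, and without control replicate 2 they were 5.43 and 5.48. With control replicate 1, cold replicate 1 and cold replicate 3 all left out, they were 4.46 and 5.24.

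The next largest rises were smaller, near 20-fold. MANES_02G151000 had 2.97, 2.40, 5.12 and 3.57 CPM in control and 75.3, 68.5, 53.8 and 79.6 CPM in cold, a rise of 19.7-fold. MANES_07G119800 had 1.77, 0.654, 1.04 and 1.03 CPM in control and 13.8, 20.3, 23.5 and 30.5 CPM in cold, a rise of 19.6-fold. Among the cold libraries the highest was 1.48 times the lowest in the first and 2.21 times in the second. The lowest cold library was 10.5 times the highest control library in the first and 7.79 times in the second. MANES_07G119800 had hardly more than 1 CPM in control, so its fold rests on a low level.

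The gap between the groups varied among the 69 IDs, and by construction it can never exceed the ratio of means. The lowest cold library was at least 4 times the highest control library for 13 of the 69 IDs. Such a gap by itself meets the fold and overlap limits of the rule. Over all 23002 IDs with at least 1 CPM in control the count was therefore the same 13. Besides the IDs described above, and 5 more described below as abundant or adjacent, these were MANES_13G013400, MANES_14G146000 and MANES_14G146100, which are named here after their values were seen. The lowest cold library was under 2 times the highest control library for 16 IDs and under 1.5 times for 8. The shares over all IDs were not taken for these limits, so these counts have no comparison. The narrowest gap, 1.06 times, was that of MANES_11G028100, also named after its values were seen. It had 24.9, 16.7 and 18.2 CPM in cold replicates 1 to 3 but 5.67 CPM in cold replicate 4, next to 5.37 CPM in control replicate 3.

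**Figure D2:**
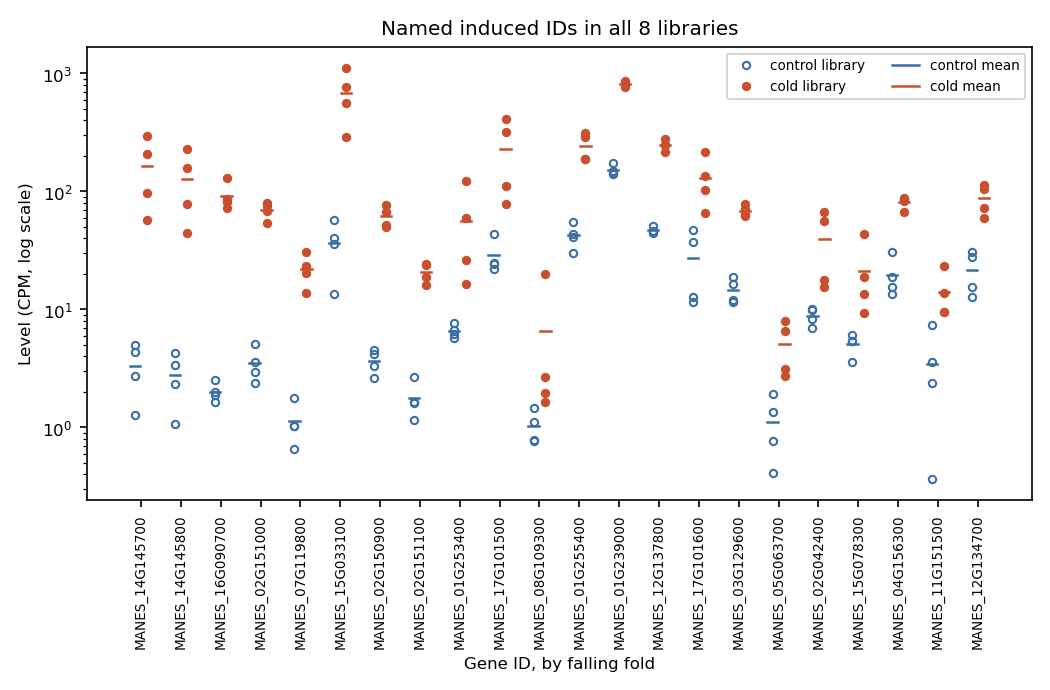
Levels (CPM, log scale) of the 22 named induced IDs in each control library (open points) and each cold library (filled points), with the group means as lines; IDs are ordered by falling fold. MANES_16G090700 shows tight groups 46.0-fold apart, while the cold points of MANES_14G145700 run from 57.1 to 298 CPM.

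Before the cold, these IDs were mostly of low to middling abundance. The control mean was 1 to 5 CPM for 36 IDs, 5 to 10 CPM for 16 and at least 10 CPM for 17, with a median of 4.38 CPM and a highest value of 152 CPM. In the cold the median was 31.2 CPM, and the range was 5.11 to 818 CPM. A cold mean of at least 100 CPM was reached by 13 IDs, of which the highest had 818 and 686 CPM. In order of mean level over all IDs of the table, 0 of the 69 were among the top 1000 in control and 7 were in the cold. The fold had little relation to the starting level, with a Spearman rho of -0.19 across the 69 IDs, which share the same libraries and the same threshold on the ratio.

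The most abundant of them was MANES_01G239000, which was also the steadiest. It had 150, 141, 173 and 143 CPM in control replicates 1 to 4 and 809, 770, 832 and 862 CPM in cold replicates 1 to 4. The rise was 5.39-fold, from 152 ± 14.9 to 818 ± 38.8 CPM (SD, n = 4 each), and the highest cold library was only 1.12 times the lowest. The ID moved from rank 1011 by mean level in control to rank 62 in cold and alone held 16.2% of the summed cold level of the 69 IDs.

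MANES_15G033100 was second in abundance and rose more. It had 13.5, 35.8, 57.8 and 40.2 CPM in control and 767, 564, 290 and 1121 CPM in cold replicates 1 to 4. Its 18.6-fold rise took it from rank 7362 to rank 84. The libraries of each group differed widely, by 4.28 times in control and 3.86 times in cold, and cold replicate 3 was the lowest cold library while control replicate 3 was the highest control library.

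The next 3 in abundance had cold means of 229 to 248 CPM. MANES_12G137800 had 44.7, 45.9, 46.0 and 51.0 CPM in control and 249, 246, 215 and 280 CPM in cold. MANES_01G255400 had 55.0, 29.9, 40.9 and 43.8 CPM in control and 311, 290, 187 and 188 CPM in cold. Their rises were 5.28-fold and 5.75-fold, and neither had a cold library near the control range. MANES_17G101500 had 43.6, 24.3, 24.7 and 22.2 CPM in control and 317, 79.0, 408 and 112 CPM in cold. Its 7.98-fold rise was mainly that of cold replicates 1 and 3. These 5 most abundant IDs held 44.1% of the summed cold level of the 69.

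The spread among cold libraries was wide for many of the induced IDs. The highest cold library was a median of 2.25 times the lowest over the 69 IDs, with a range of 1.12 to 12.2, against a median of 1.54 over all IDs with at least 1 CPM in control. It was more than 3 times the lowest for 24 of the 69 (34.8%), against 8.04% of all. In control the medians were 1.96 for the 69 and 1.46 for all. Since low levels vary more, the comparison was also made by level. Among IDs with a cold mean of 5 to 20 CPM the median was 3.20 for the 24 induced IDs and 1.57 for all. At 20 CPM and above it was 1.95 for the 45 induced IDs and 1.43 for all. In control, the median at 1 to 5 CPM was 2.09 for 36 induced IDs and 1.99 for all, and at 20 CPM and above 1.84 for 11 induced IDs and 1.36 for all. The choice by mean and by non-overlap acts on this spread, so these values are a description.

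**Figure D3:**
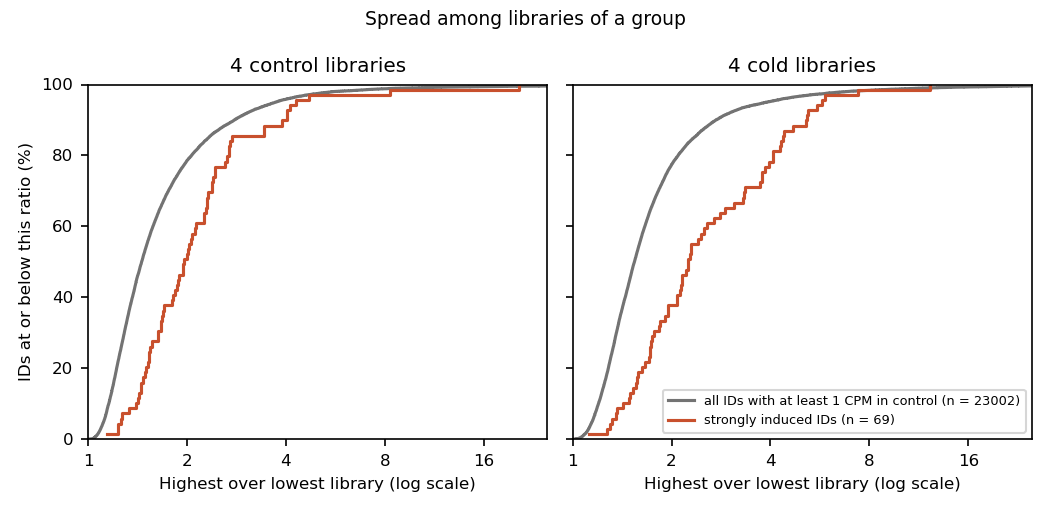
Cumulative share of IDs (vertical, %) by the ratio of the highest to the lowest library of a group (horizontal, log scale), for control libraries (left) and cold libraries (right). The curve of the 69 induced IDs lies to the right of that of all IDs for most of its length in both groups, with medians of 1.96 against 1.46 in control and 2.25 against 1.54 in cold.

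The steadiest and the most spread IDs were compared among the 33 with at least 5 CPM in control. Besides MANES_01G239000 and MANES_12G137800, the steady ones were MANES_03G129600 and MANES_04G156300. MANES_03G129600 had 11.5, 16.5, 18.9 and 12.0 CPM in control and 61.4, 63.9, 78.1 and 71.6 CPM in cold, a 4.66-fold rise. MANES_04G156300 had 30.6, 18.8, 15.5 and 13.5 CPM in control and 87.1, 66.4, 87.6 and 82.2 CPM in cold, a 4.12-fold rise. The highest cold library of these 4 IDs was 1.12 to 1.32 times the lowest, so their rises were alike in every cold library.

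At the other end, MANES_01G253400 had 6.24, 6.68, 7.67 and 5.77 CPM in control and 122, 16.4, 59.9 and 26.0 CPM in cold, a 7.40-fold range among the cold libraries. MANES_15G078300 had 5.44, 3.60, 5.40 and 6.03 CPM in control and 43.6, 9.32, 18.9 and 13.6 CPM in cold. Cold replicate 1 was the highest in both, and cold replicate 2 the lowest. MANES_02G042400 had 8.23, 10.2, 9.82 and 7.01 CPM in control and 67.3, 17.8, 56.3 and 15.6 CPM in cold, where replicates 1 and 3 stood above replicates 2 and 4. MANES_17G101500, given above, completed these 4. Control levels of the first 3 were close together, within 1.33 to 1.67 times, so the wide spread was in the cold libraries.

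That division of the cold libraries was the most common one among the 69. The 4 cold libraries can divide into an upper and a lower pair in 6 ways. Cold replicates 1 and 3 both lay above cold replicates 2 and 4 for 26 of the 69 IDs (37.7%), against 11.0% of all IDs with at least 1 CPM in control and 16.4% of the 821 other IDs at that level called higher by edgeR. Replicates 1 and 4 were the upper pair for 20 of the 69 (29.0%), against 15.8% of all, and replicates 3 and 4 for 12 (17.4%), against 17.9%. Replicates 2 and 4 lay above 1 and 3 for 8 (11.6%), against 28.1% of all. Replicates 1 and 2 were the upper pair for 3 (4.35%), against 14.5%, and replicates 2 and 3 for 0, against 12.7%. Replicate 1 was thus in the upper pair of most IDs and replicate 2 seldom. Cold replicates 1 and 3 are the cold libraries with the larger share of counts in their 1000 most abundant IDs, and the part of that share in this order was not tested. With TMM factors in place of column sums, replicates 1 and 3 were the upper pair for 29 of the 69 IDs (42.0%), against 17.2% of all.

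For 8 IDs the lower of cold replicates 1 and 3 was at least 2 times the higher of replicates 2 and 4. They were MANES_14G145700, MANES_14G145800, MANES_17G101500, MANES_01G253400 and MANES_02G042400, and, named after their values were seen, MANES_03G044200, MANES_10G125300 and MANES_15G080700. MANES_15G080700 shows the division most plainly, with 58.8 and 55.9 CPM in cold replicates 1 and 3 and 14.5 and 14.4 CPM in replicates 2 and 4, over 3.90, 3.82, 5.48 and 7.15 CPM in control. MANES_03G044200 had 7.49 and 12.2 CPM in cold replicates 1 and 3, 2.21 and 3.01 CPM in replicates 2 and 4, and 0.753 to 1.59 CPM in control. All 4 cold libraries were above control in these IDs, which the rule requires, and replicates 2 and 4 only by a small margin in the second. A division of this size was found for 0.452% of all IDs with at least 1 CPM in control.

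The opposite order, with replicates 2 and 4 on top, was found for 8 IDs and never reached 2 times. A division of at least 2 times in this order was found for 0.391% of all IDs with at least 1 CPM in control. With a share this small, its absence among the induced IDs carries no weight. MANES_05G012000, named after its values were seen, had 54.4 and 42.3 CPM in cold replicates 2 and 4, 12.5 and 32.9 CPM in replicates 1 and 3, and 1.14, 2.57, 3.92 and 3.64 CPM in control, a 12.6-fold rise. MANES_09G068800, named likewise, had 148 and 101 CPM in cold replicates 2 and 4, 52.8 and 62.7 CPM in replicates 1 and 3, and 6.60, 7.58, 10.7 and 16.1 CPM in control, an 8.90-fold rise. In both, control replicate 1 was the lowest control library and cold replicate 1 the lowest cold library.

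A single cold library stood at least 2 times above the next for 9 IDs (13.0%), against 3.5% of all IDs with at least 1 CPM in control. The extreme case was MANES_08G109300, with 19.9 CPM in cold replicate 1 and 1.95, 2.69 and 1.63 CPM in cold replicates 2 to 4. Its control levels were 1.10, 0.774, 0.787 and 1.46 CPM, so that 3 of the 4 cold libraries lay close to the control range. Without cold replicate 1 its log2 fold change in edgeR was 1.04. It was 1 of the 3 induced IDs that edgeR did not call, with MANES_11G151500 and MANES_18G030600, the last of which is named after its values were seen. All 3 had wide spread in one group or the other, of 8.28 and 20.5 times in the control libraries of the last and the second, and each had an unadjusted p below 0.05.

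Over the 69 IDs, the highest cold value was in cold replicate 4 for 25 (36.2%, against 24.0% of all IDs with at least 1 CPM in control). It was in replicate 1 for 24 (34.8%, against 22.8%), in replicate 3 for 13 (18.8%, against 22.7%) and in replicate 2 for 7 (10.1%, against 30.5%). The lowest cold value was in replicate 2 for 35 of the 69 (50.7%), against 19.0% of all IDs with at least 1 CPM in control. In control, the highest value was in replicate 4 for 30 IDs (43.5%), against 26.6% of all, and the lowest in replicate 1 for 30 (43.5%), against 46.1% of all. With TMM factors the lowest cold value was still in replicate 2 for 37 of the 69 IDs, a larger share than the 24.8% of all. The highest was then in replicate 1 for 30 of the 69 (43.5%), against 29.9% of all. It was in replicate 4 for 19 of the 69, a larger share than the 17.3% of all.

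**Figure D4:**
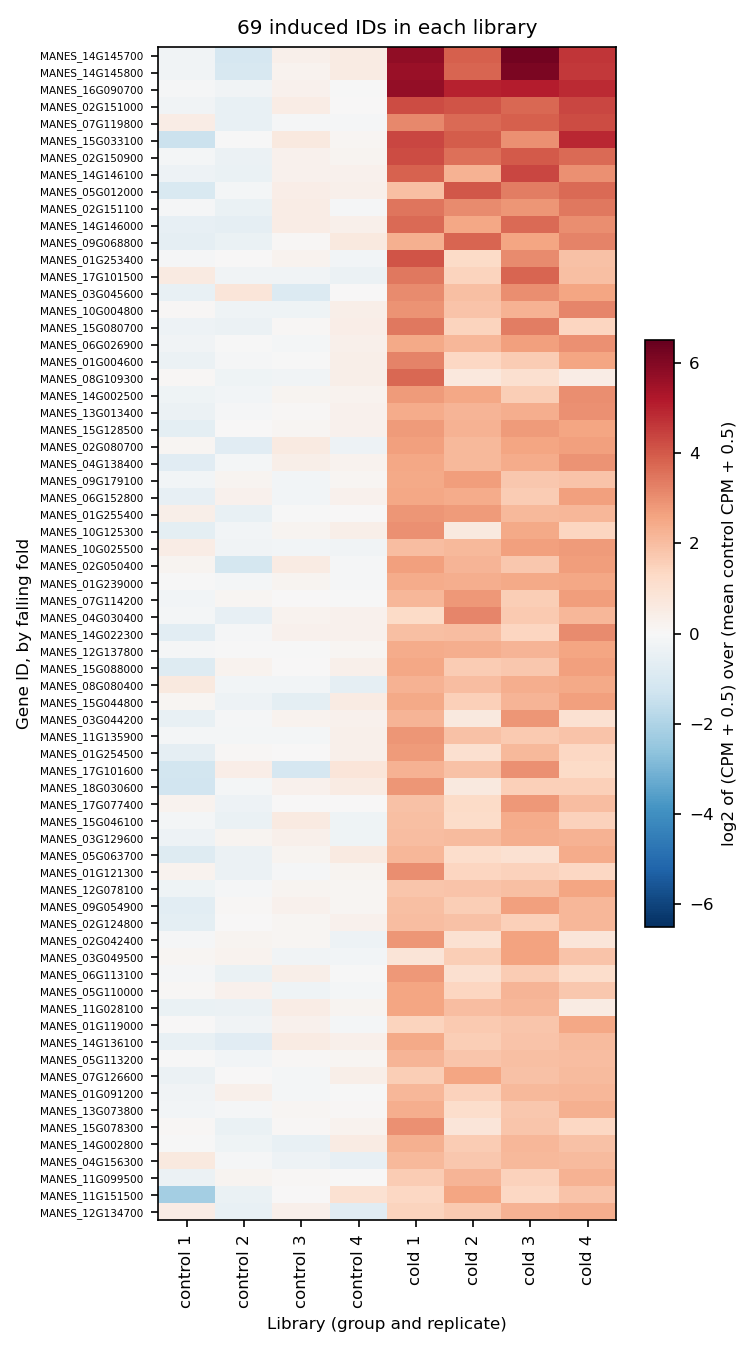
Colour shows log2 of a library's CPM plus 0.5 over the mean control CPM plus 0.5 for the 69 induced IDs (rows, by falling fold) in the 4 control and 4 cold libraries (columns). Control cells run from -2.19 to 1.01 and cold cells from 0.48 to 6.28. Most cold cells are thus deeper than control cells, although 10 of the 276 cold cells are below 1 and pale. The top rows, of MANES_14G145700, MANES_14G145800 and MANES_16G090700, are deepest in cold replicates 1 and 3. The next rows, of MANES_02G151000 and MANES_07G119800, are deepest in cold replicate 4. Single cells such as MANES_08G109300 in cold replicate 1 stand out further down.

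Some induced IDs lay side by side in the numbering of loci. Of the 69, 9 (13.0%) had another of the 69 as the next ID, in 4 runs, while 0.43% of all IDs with at least 1 CPM in control had an induced ID next to them. Within 10 IDs there was another one for 13 of the 69. The share of all IDs with an induced ID that near was not taken, so this count has no comparison. Adjacent genes may share reads where their sequences are alike or overlap, and the sources used here do not say how such reads were counted.

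The longest run was on chromosome 2, where MANES_02G150900, MANES_02G151000 and MANES_02G151100 rose 16.7-fold, 19.7-fold and 11.7-fold. MANES_02G150900 had 3.35, 2.65, 4.52 and 4.16 CPM in control and 77.2, 49.5, 66.5 and 52.2 CPM in cold. MANES_02G151100 had 1.63, 1.16, 2.66 and 1.64 CPM in control and 24.5, 18.8, 16.1 and 23.9 CPM in cold. All 3 were steady in the cold, with the highest library 1.48 to 1.56 times the lowest. The ID just before the run, MANES_02G150800, missed the rule narrowly with a rise of 3.90-fold, from 2.09 ± 0.555 to 8.15 ± 1.94 CPM (SD, n = 4 each). The ID just after it, MANES_02G151200, had 22.9 ± 13.7 CPM in control and 21.4 ± 7.17 CPM in cold, a difference within the spread of the libraries.

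On chromosome 14, 4 induced IDs fell within 5 consecutive IDs. The pair MANES_14G145700 and MANES_14G145800 came first, then MANES_14G145900, which was no induced ID, and then MANES_14G146000 and MANES_14G146100. MANES_14G146000 had 2.76, 2.68, 6.14 and 5.42 CPM in control and 59.8, 26.2, 60.2 and 38.0 CPM in cold, a 10.8-fold rise. MANES_14G146100 had 1.81, 1.67, 3.04 and 3.00 CPM in control and 41.2, 13.4, 57.5 and 21.8 CPM in cold, a 14.1-fold rise. In all 4 induced IDs, cold replicates 1 and 3 were the highest and cold replicate 2 the lowest. MANES_14G145900, between the pairs, had 41.9 ± 5.68 CPM in control and 45.8 ± 8.95 CPM in cold, a difference within the spread of the libraries. MANES_14G145600, before the group, had 109 ± 8.27 and 101 ± 20.5 CPM (SD, n = 4 each).

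The first pair on chromosome 14 kept an almost fixed proportion. The level of MANES_14G145800 was 0.846, 0.838, 0.774 and 0.866 times that of MANES_14G145700 in control replicates 1 to 4 and 0.770, 0.784, 0.771 and 0.810 times in cold replicates 1 to 4, though both levels changed over 40-fold. The other pairs were looser. MANES_14G146100 was 0.494 to 0.955 times MANES_14G146000, and MANES_02G151000 was 0.809 to 1.52 times MANES_02G150900. MANES_02G151100 was 0.460 to 0.547 times MANES_02G151000 in control but 0.275 to 0.325 times in cold, which is the smaller fold of the last of the 3 seen library by library.

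On chromosome 17, the pair MANES_17G101500 and MANES_17G101600 had the highest control levels of the runs but did not move in step among the control libraries. In the cold, replicate 3 was the highest and replicate 1 the next in both IDs, while replicates 2 and 4 stood in opposite order. MANES_17G101600 had 11.5, 37.3, 12.7 and 47.4 CPM in control and 135, 104, 218 and 65.6 CPM in cold, a 4.79-fold rise with a gap of only 1.38 times between the groups. Its level was 0.265 to 2.14 times that of its neighbour. Control replicate 1 was the highest control library for MANES_17G101500 and the lowest for MANES_17G101600. The ID just before the pair, MANES_17G101400, was far more abundant and had a lower level in cold, 2471.8 ± 515 CPM in control and 1114.5 ± 259 CPM in cold (SD, n = 4 each). This ID is no induced one, and edgeR's quasi-likelihood test called it lower, with a log2 fold change of -1.12 and an adjusted p of 0.032 over all tested IDs.

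**Figure D5:**
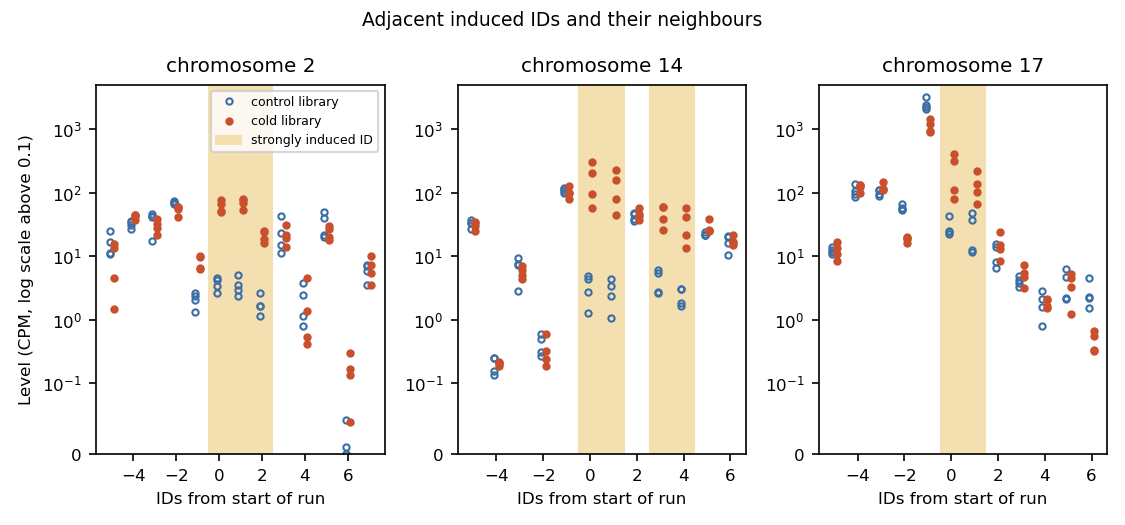
Levels (CPM, log scale above 0.1) in the 4 control (open) and 4 cold (filled) libraries along consecutive IDs on chromosomes 2, 14 and 17, counted from the first induced ID of a run; shaded positions are strongly induced IDs. On chromosome 14 the unshaded ID between the 2 pairs has about the same level in both groups (41.9 and 45.8 CPM), while the 4 shaded ones are 10.8-fold to 49.3-fold higher in cold.

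Next IDs that were not themselves induced were looked at in the same way. There were 127, of which 90 had at least 1 CPM in control. Their median ratio of cold to control was 1.06, with a range of 0.451 to 3.90, and 4 of the 90 (4.44%) reached 2-fold, against 2.33% of all IDs at that level. This range leaves out next IDs with under 1 CPM in control, some of which rose over 4-fold. Named after their values were seen, MANES_16G090800 rose 12.9-fold, from 0.516 to 6.67 CPM, and MANES_08G080500 16.7-fold, from 0.122 to 2.04 CPM. Both were called higher by edgeR. Others had a lower mean in cold, such as MANES_15G128600, with 0.695 CPM in control and 0.304 CPM in cold, which edgeR did not call lower. In edgeR, 11 of 113 tested next IDs were higher (9.73%), against 4.06% of all tested IDs, and 5 were lower (4.42%), against 5.09% of all. The numbers are small, and no test was made of the difference from all IDs.

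The induced IDs were spread over all 18 chromosomes. Chromosomes 1 and 14 held 8 each, chromosomes 2 and 15 held 7 each, and chromosomes 16 and 18 held 1 each. As a share of the IDs with at least 1 CPM in control, chromosome 14 was highest with 0.629% (8 of 1271) and chromosome 16 lowest with 0.0981% (1 of 1019). The 4 neighbours on chromosome 14 make up 4 of its 8.

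The edges of the rule fall in a continuous range of values. Just inside the 4-fold limit were MANES_12G134700, with 21.6 ± 8.81 CPM in control and 87.3 ± 25.9 CPM in cold (4.03-fold), and MANES_11G151500, with 3.45 ± 2.98 and 14.0 ± 6.48 CPM (4.05-fold). Just outside it were MANES_09G095600, with 6.65 ± 1.69 and 26.3 ± 5.45 CPM (3.96-fold), and MANES_02G130500, with 1.60 ± 0.685 and 6.34 ± 2.83 CPM (3.95-fold; SD, n = 4 each). The folds on both sides of the limit were nearly equal, and the libraries of each ID varied far more than this.

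At the level limit, MANES_08G109300 with 1.03 CPM in control and MANES_05G063700 with 1.12 ± 0.671 CPM in control and 5.11 ± 2.59 CPM in cold were just inside. MANES_15G002000 and MANES_13G044000 were just outside, with 0.981 ± 0.322 and 0.917 ± 0.381 CPM in control. In the cold they had 14.1 ± 5.10 and 5.48 ± 3.15 CPM (SD, n = 4 each). MANES_15G002000 rose 14.4-fold, more than most of the 69, and was left out for its control level alone.

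A further 8 IDs met the limits on level and fold but had groups that overlapped. In these, 1 to 3 cold libraries carried the mean. MANES_06G165700, named after its values were seen, had 54.8 CPM in cold replicate 2 but 0.19, 2.72 and 1.30 CPM in replicates 1, 3 and 4, with up to 6.43 CPM in control. The highest value was in cold replicate 2 for 4 of the 8, in replicate 1 for 3 and in replicate 4 for 1.

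To see how the induced IDs fared in a library that did not choose them, the rule was applied to 7 libraries and the remaining one was then read. Without 1 cold library it chose 66, 82, 66 and 69 IDs, leaving out cold replicates 1 to 4 in turn. In the cold library left out, these IDs had median levels of 5.12, 3.35, 4.55 and 4.49 times the control mean. They lay above all control libraries for 62 of 66, 76 of 82, 66 of 66 and 68 of 69 IDs, while 20.7%, 27.9%, 24.4% and 27.2% of all IDs with at least 1 CPM in control did so in cold replicates 1 to 4. They reached 4 times the control mean for 46, 33, 39 and 43 IDs and 2 times for 59, 69, 66 and 63. Of all IDs at that level, 0.378% to 0.678% reached 4 times and 3.00% to 3.66% reached 2 times in the same libraries. Over all IDs with at least 1 CPM in control, the median level in a cold library was 0.91 to 0.993 times the control mean. Most of the IDs chosen were thus high again in the cold library that was held back, with the smallest median in cold replicate 2. The lowest level was 2.25 times the control mean in cold replicate 3 but 0.0876 to 0.685 times in the other cold libraries, so some IDs there were not raised in the library held back. The control libraries were the same ones that had chosen the IDs.

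Leaving out 1 control library gave 67, 68, 77 and 76 IDs for control replicates 1 to 4. The cold mean was a median of 5.93, 6.09, 4.72 and 4.74 times the control library left out. That library lay below all cold libraries for 66 of 67, 68 of 68, 73 of 77 and 74 of 76 IDs. Of all IDs with at least 1 CPM in the other control libraries, 31.9%, 19.6%, 18.8% and 16.5% had control replicates 1 to 4 below all cold libraries. Between 55 and 66 of the 69 IDs were chosen again in each of the 8 cases, with the fewest when cold replicate 1 was left out.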

How the data were processed

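The authors deposited whole-number counts per gene ID, 1 column per library, unscaled for depth or gene length. RNA was total RNA in stranded libraries, per the labels' protocols. STAR 2.7.10a, SAMtools 1.6 and bedtools 2.30 appear in the submitters' processing notes, with no role stated. The sources used here do not give the counter, its strandedness, the genome build or the annotation, and IDs that overlap or resemble another gene may have wrong counts. CPM values were computed from column sums. The test was that of edgeR 4.0.16 in R 4.3.3 (filterByExpr, TMM factors, robust quasi-likelihood F test, 2-sided, Benjamini-Hochberg over 26517 IDs, threshold 0.05, no replicate block). DESeq2 1.42.0 and limma-voom (limma 3.58.1) were alternatives. Python 3.11.15 with pandas 2.3.3, numpy 2.4.6 and matplotlib 3.10.9 was used for the rest.

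The induced IDs, the gene lists and the alternatives were chosen with earlier results of these data known. IDs were named by rule: the 5 largest folds, the 5 highest cold means, the 4 steadiest and 4 most spread in cold with at least 5 CPM in control, the 3 longest runs of adjacent IDs, and the 2 on each side of the fold and level limits. Others named are said to be so, apart from direct neighbours of runs, which were also chosen afterwards. Lists of cold-response genes and promoter motifs were set out but could not be used, since no ID matched a name. No 2 libraries of a group were alike within counting noise (lowest chi-square per degree of freedom 63.4).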

Additional observations from a re-analysis of the deposited data

Results flagged for a closer look

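The levels of the named IDs and 4 summary values per library were searched for a library that stood well apart within its group of 4. Of 60 groups, 2 held one. Chance alone gives about 1 in 20 for groups not picked by their values. Some of these IDs were named for their spread, so the count cannot be set against that rate. MANES_08G109300 had 19.9 CPM in cold replicate 1, against 1.63 to 2.69 CPM in the other cold libraries. MANES_17G101500 had 43.6 CPM in control replicate 1, against 22.2 to 24.7 CPM in the other control libraries. Over all 69 induced IDs, 8 of 138 groups held one, and the choice by mean and non-overlap acts on this count as well.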

How the results depend on the processing

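Limits on the rule set the size of the list: 17 IDs had at least 10 CPM in control, 121 passed at 3-fold and 13 at 8-fold. Other scalings, medians, control levels of 0.5 or 2 CPM and no condition on overlap gave 55 to 93. Leaving out 1 library gave 66 to 82 IDs, a median fold of 5.01 to 5.81 and 8 to 10 IDs next to another. The cold share of counts of the same 69 IDs, not chosen anew, was 0.489% to 0.529% without 1 cold library. The median ratio of highest to lowest cold library was then 1.92 to 2.10, lower by construction with 3 libraries. Without control replicate 1, cold replicate 1 and cold replicate 3 (chosen after seeing the data) that ratio was 1.46 with 2 cold libraries, the rule chose 67 IDs of which 45 were among the 69, and edgeR called 53 of the 69, with 619 IDs higher and 769 lower over the whole table, against 1076 and 1349. The log2 fold change was then 0.91 for MANES_02G042400, 1.68 for MANES_01G253400 and 0.85 for MANES_08G109300.

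DESeq2 called 68 of the 69 (2197 higher and 2357 lower in all), and limma-voom called 62 (1013 higher and 1363 lower in all). The cause of the larger counts in DESeq2 was not tested. Leaving out 1 library, edgeR called 57 to 67 of the 69, and 477 to 971 higher and 589 to 1385 lower in all; counts fell over 1.5 times without control replicate 2 (477 and 589), control replicate 3 (578 and 782), control replicate 4 (656 higher), cold replicate 3 (703 and 844) and cold replicate 4 (591 and 673). With the replicate block it called 58 of the 69, and 592 higher and 689 lower. Same-numbered libraries share no more than a number in the labels: their residuals around group means had correlations of 0.11, 0.10, -0.35 and -0.04, and 1 of 4 control libraries was closest to its own number. Depth limits the scarcest values, the lowest of which was 20 counts. The log2 fold change of each of the 69 was positive in all fits, and of 416 refitted values of 26 named IDs, 412 moved by less than the spread of the libraries.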
